A study of Mus musculus with 12 samples.

Results

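The mRNAs described here encode the proteins of the mitochondrial ribosome and were followed in ribosome-bound and total RNA of mouse sensory ganglia. Members were chosen by name: every row of the count table whose Ensembl ID maps to a mouse symbol starting with Mrpl or Mrps and a digit, with pseudogene symbols left out. This gave 78 genes of 14675 rows, 49 named Mrpl for the large subunit and 29 named Mrps for the small subunit. All 78 such symbols of the name table had a row in the count table, and all 78 passed the filter on low counts, so the members described are the complete list. The 1 pseudogene row left out, Mrpl23-ps1, held 298, 316, 786 and 967 counts in the 4 groups, more than the 108, 103, 305 and 321 counts of Mrpl23 itself, and reads of this pair may have been split between them.

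Mitochondrial ribosomes translate the few mRNAs encoded by the mitochondrial genome, all of which specify subunits of the oxidative phosphorylation machinery. Their RNAs are made inside the organelle, but every one of their proteins is encoded in the nucleus, translated on cytosolic ribosomes and imported. Many of these proteins have a bacterial counterpart, and others were added in the mitochondrial lineage. The mRNAs counted here are therefore clients of the cytosolic ribosome, the particle that the RiboTag method pulls down.

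The mice were RPL22HA+/+;Advillin-Cre+, in which Cre, driven in sensory neurons, switches on an HA-tagged copy of the cytosolic ribosomal protein Rpl22. Input libraries hold total RNA of the adult dorsal root ganglion (DRG) lysate, other cell types included, and IP libraries hold the RNA that came down with an antibody against HA. All groups carried AAV-shGpr151, a virus with a short hairpin RNA against Gpr151. In each fraction 1 group had that virus alone and 1 group had AAV-e5'UTR in addition, here called e5UTR, whose insert the labels do not describe. No group without the hairpin enters the comparisons. Per the design text the neurons were cultured after a conditioning injury of the sciatic nerve, whereas per the protocol the ganglia were freshly collected, and it could not be settled which of these was sequenced.

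Each of the 4 groups has 3 columns, with totals of 975403 to 985277 counts in input and 1381220 to 1517685 in IP. Within a group the columns differed by little more than counting noise (median chi-square over its expectation 1.08 to 1.12 over genes with at least 30 counts). They were summed and counted as 1 sample, a pool, and nothing in the labels says that columns came from separate animals. Levels are counts or CPM of the TMM-scaled pool (scaled CPM), and neither is adjusted for transcript length, so levels are compared between pools and not between genes. Of 13 sensory neuron markers 11 rose in IP. Their summed level was 4960 to 4987 scaled CPM in input and 9428 to 9943 in IP. Satellite glia markers (4 of 7 tested fell) went from 1836 to 1927 down to 274 to 295, but Glul, glutamine synthetase, rose from 52 and 69 counts to 680 and 623 (log2 1.98; adjusted p = 1.3e-06). Schwann cell markers (6 of 8 fell) went from 1113 to 1142 down to 473 to 499, macrophage markers (7 of 10) from 206 to 207 down to 91.4 to 97.5, and fibroblast markers (5 of 6) from 725 to 756 down to 138 to 152. The 4 erythroid markers all fell, from 2291 to 2340 down to 2.31 to 3.10. Of the endothelial and mural markers Rgs5 (log2 0.09) and Acta2 (-0.05) were tested and not called, and the list summed to 64.6 and 75.4 in input and 57.7 and 70.1 in IP. Ncmap and Hbb-bt had 0 counts in both IP pools. The part of these other cells in the differences below was not tested. Between the 2 treatments, fewer cells of a type and less RNA per cell cannot be told apart in such bulk RNA.

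The first comparison asks which of these mRNAs were over- or under-represented on tagged neuronal ribosomes relative to total RNA. With TMM scaling most members moved little. In the edgeR fit of the 4 pools 10 members rose in IP, 21 fell and 47 were not called, beside 28.0% of 11343 genes called higher and 32.2% called lower. The median log2 IP over input was -0.11 over the members and 0.05 over all genes tested. The interquartile range of the members ran from -0.39 to 0.20, and that of all genes from -1.17 to 0.92. An absolute difference under 1.5-fold was found for 53 members (67.9%) and for 31.7% of all genes, and one beyond 2-fold for 14 members (17.9%) and 50.2% of all genes. Among genes with a mean of at least 50 counts the interquartile range was 0.56 for 71 members and 2.36 for all 5002 genes. Without either one of the input pools 6 members rose and 14 fell, beside 2534 and 3218 of 12863 genes without the shGpr151 pool and 2506 and 3280 of 12878 without the e5UTR pool. Scaling by library total instead moved both medians up by 0.89, to 0.78 and 0.94, and gave 60 members higher and 5 lower, beside 56.7% and 20.8% of all genes. Directions and sizes of difference here are therefore relative to the bulk of genes. The shares under 1.5-fold and beyond 2-fold were taken with TMM scaling only. The members' median lay 0.16 below that of all genes, a gap that a change of scaling cannot alter. At a mean of at least 50 counts the medians were closer, at -0.12 for the members and -0.03 for all genes. Without a count filter both subunits had a median of -0.03, beside 0.05 for all genes, and with DESeq2 -0.02, beside 0.06.

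**Figure D1:**
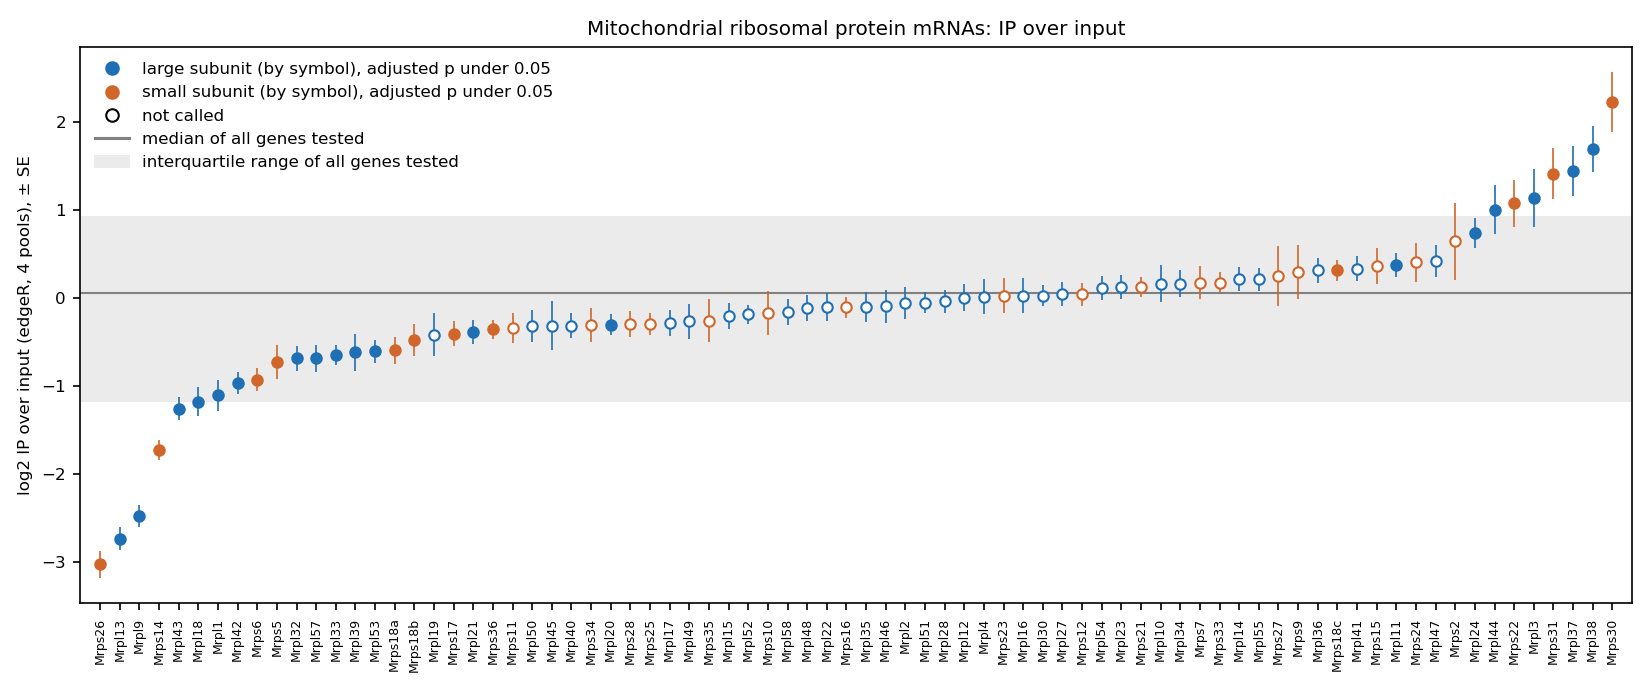
Log2 IP over input of the 78 members in order, with the standard error of the edgeR fit on 4 pools; blue points are Mrpl genes, orange points Mrps genes, open points were not called, and the grey line and band give the median and interquartile range of all genes tested. Most points lie inside the band, with 4 genes far below at -3.03 to -1.73 and 7 genes at 1.00 or above.

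Over all members large and small subunit mRNAs had the same median in the edgeR fit of the 4 pools. Of 49 Mrpl genes 6 rose and 13 fell, with a median of -0.11 and an interquartile range from -0.39 to 0.16. Of 29 Mrps genes 4 rose and 8 fell, also with a median of -0.11 and an interquartile range from -0.36 to 0.29. These shares stand beside the 28.0% higher and 32.2% lower of all genes. The medians were not equal under every filter. In a fit of only the genes with a mean of at least 50 counts they were -0.08 for large and -0.25 for small. Symbols and structure do not match throughout: Mrps30 and Mrps18a are large subunit proteins in structures of the mammalian particle, and Mrps36 is known as a subunit of the alpha-ketoglutarate dehydrogenase complex. Assigned by structure, 51 large subunit genes had a median of -0.11 (7 rose, 14 fell) and 26 small subunit genes a median of -0.05 (3 rose, 6 fell). Members with a bacterial counterpart (47 genes) had a median of -0.06, with 4 rises and 14 falls. The 31 mitochondria-specific members had a median of -0.16, with 6 rises and 7 falls.

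The members that fell most were Mrps26, Mrpl13, Mrpl9 and Mrps14. Mrps26, a small subunit protein without a bacterial counterpart, had input counts of 3116 with shGpr151 alone and 3111 with e5UTR, and IP counts of 1164 and 902 in the same order, which is kept below. In scaled CPM this was 1449 and 1447 against 207 and 147, a log2 difference of -3.03 ± 0.15 (SE; adjusted p = 8.8e-09). Both IP pools were far below both input pools, and the pair of input pools was almost equal. Mrpl13, the counterpart of a bacterial large subunit protein, had 1222 and 1286 scaled CPM in input and 207 and 168 in IP (log2 -2.74 ± 0.13; adjusted p = 5.3e-09). Mrpl9 had 239 and 240 in input and 46.1 and 39.6 in IP (-2.48 ± 0.13; adjusted p = 1.4e-08). Mrps14, a protein of the head of the small subunit, had 895 and 894 in input and 260 and 280 in IP (-1.73 ± 0.11; adjusted p = 5.7e-08). The groups did not overlap for any of the 4, but this was a condition for naming a member and adds no support. The reads were not examined here, and whether all input counts assigned to these genes came from their own mRNAs was not tested. This bears above all on Mrps26 and on Mrpl13 (2629 and 2765 input counts), and on the subunit balance given below. No other gene overlaps the 4 in the RefSeq annotation, which does not settle the source of the counts. Each of them also fell when pools were scaled by library total, at -2.14, -1.85, -1.59 and -0.84 on the log2 scale.

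A second group fell by about 2-fold. Mrpl43 had 176 and 192 scaled CPM in input against 72.0 and 82.2 in IP (log2 -1.26 ± 0.13), and Mrpl18 had 77.2 and 68.4 against 29.5 and 34.6 (-1.18 ± 0.16). Mrpl1 had 39.5 and 43.3 in input and 19.2 in both IP pools (-1.11 ± 0.18). Mrpl42, which has no bacterial counterpart, had 226 and 211 against 101 and 122 (-0.97 ± 0.13). For all of these the IP pools lay below both input pools, by the same condition. Mrps6 fell from 326 and 309 to 148 and 184 (-0.93 ± 0.13). Mrps5, a protein of the mRNA entry channel, fell from 31.6 and 28.4 to 17.4 and 18.7 (-0.73 ± 0.19), but stood at 0.16 by library total. Its call was lost without the shGpr151 input pool (adjusted p = 0.0578) and with DESeq2 (0.129). Mrpl18 overlaps Tcp1, a chaperonin subunit gene with 105 and 127 counts in input and 1013 and 1155 in IP, so reads of these 2 genes may not be fully told apart. In all, 25 of the 78 members overlap another gene in the RefSeq annotation, and whether the counting used strand is not given. By library total Mrpl43 was still called lower (-0.36), whereas Mrpl18 (-0.29), Mrpl1 (-0.22), Mrpl42 (-0.08) and Mrps6 (-0.04) were not called.

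The members that rose mostly had few counts in input. Mrps30 had 6 and 7 counts in input and 73 and 94 in IP, or 2.79 and 3.26 against 13.0 and 15.3 scaled CPM (log2 2.22 ± 0.34; adjusted p = 0.000146). Mrpl38, a protein of the central protuberance of the large subunit, had 18 and 12 counts in input and 130 and 136 in IP (1.69 ± 0.26; adjusted p = 0.000162). Both rested on fewer than 20 input counts per pool. Both were separated from input in each pool, which the choice of named members required. Mrpl37, a mitochondria-specific large subunit protein, had 11 and 14 counts in input and 91 and 95 in IP (1.44 ± 0.28). Mrps31 had 12 and 11 in input and 85 and 83 in IP (1.41 ± 0.29). Mrpl3, which lies near the peptidyl transferase centre, had 10 and 13 in input and 56 and 83 in IP (1.13 ± 0.33). These 3 genes all rose at scaled levels that did not overlap, by the same requirement. Mrps22, a mitochondria-specific small subunit protein, had 14 and 23 counts in input and 103 and 110 in IP (1.07 ± 0.27). Mrpl44, near the exit of the peptide tunnel and with an RNase III-like fold, had 19 and 13 in input and 80 and 96 in IP (1.00 ± 0.28). It overlaps Wdfy1, which had 11 and 13 counts in input and 63 and 65 in IP. The lowest of these rises rested on single pools. Without the shGpr151 input pool the adjusted p was 0.0599 for Mrpl3 and 0.0692 for Mrps22. Without the e5UTR input pool it was 0.0942 for Mrpl44, without the shGpr151 IP pool 0.0622 for Mrps22, and without the e5UTR IP pool 0.0513, 0.0513 and 0.0526 for Mrpl3, Mrps22 and Mrpl44. With DESeq2 Mrpl3 (0.0791) and Mrpl44 (0.0700) were not called.

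The other 3 rises were smaller and better counted. Mrpl24, a protein of the peptide exit tunnel, had 71 and 58 counts in input and 280 and 307 in IP (0.73 ± 0.17; adjusted p = 0.00257). Mrpl11 of the stalk base had 121 and 114 in input and 421 and 407 in IP (0.37 ± 0.14; adjusted p = 0.0443). Mrps18c had 491 and 522 in input and 1575 and 1879 in IP (0.31 ± 0.12; adjusted p = 0.0335). Leaving out 1 input pool ended the call for Mrpl11, with adjusted p = 0.174 without the shGpr151 input pool and 0.286 without the e5UTR input pool. Without the shGpr151 IP pool it was 0.0755, with DESeq2 0.120 and with limma 0.0546. The same input pools ended the call for Mrps18c, at 0.345 and 0.197. Mrpl24 lost its call without the e5UTR input pool (0.0572). Of the 10 members called higher, 7 were among the 20 with the lowest mean scaled CPM.

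**Figure D2:**
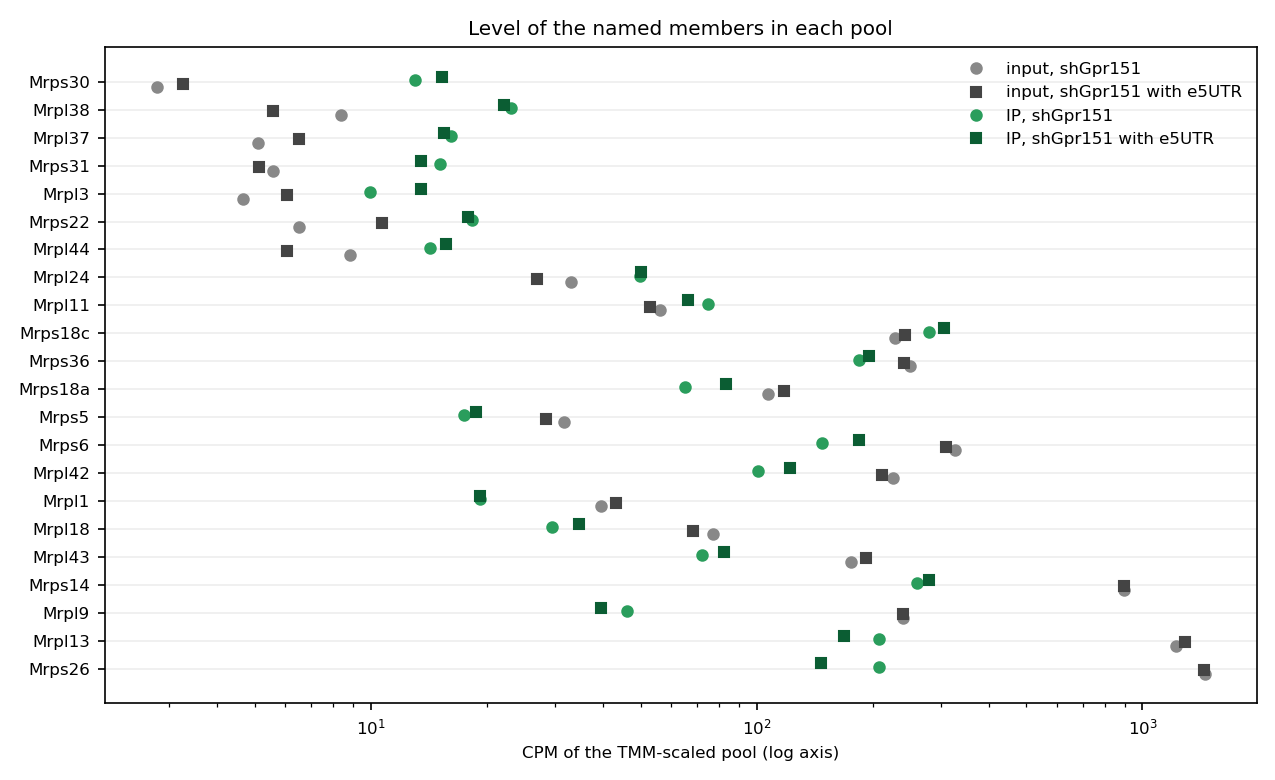
Scaled CPM on a log axis of the 22 members named by the size of their difference or for their subunit assignment, in each of the 4 pools; grey symbols are input and green symbols IP, circles are shGpr151 alone and squares are with e5UTR. Green symbols lie right of both grey ones in the 10 upper genes and left of them in the 12 lower ones. This was a condition for naming all of them but Mrps18a and Mrps36.

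Among the members whose place in the particle is given here, those that were called stood beside others that were not. In the stalk base and stalk, which recruit translation factors, Mrpl11 was called at 0.37 while Mrpl10 (0.16) and Mrpl12 (0.00) were not called. Near the peptidyl transferase and tRNA sites, Mrpl3 rose by 1.13 while Mrpl2 (-0.06), Mrpl16 (0.02) and Mrpl27 (0.04) were not called. Along the peptide exit tunnel and near its exit Mrpl24 (0.73) and Mrpl44 (1.00) rose, and Mrpl22 (-0.11) and Mrpl23 (0.12) were not called. Mrpl45, which anchors the tunnel exit at the inner membrane, stood at -0.32 and was not called. In the central protuberance Mrpl38 rose by 1.69 and Mrpl18 fell (-1.18), whereas Mrpl40 (-0.32), Mrpl46 (-0.10) and Mrpl48 (-0.12) were not called. Mrpl58, a peptidyl-tRNA hydrolase, stood at -0.16 and was not called. In the small subunit the decoding centre protein Mrps12 (0.04) and the platform protein Mrps11 (-0.35) were not called. At the mRNA entry channel Mrps5 fell (-0.73; 0.16 by library total) and Mrps24 (0.40) was not called. In the head, Mrps14 fell (-1.73), Mrps31 rose (1.41) and Mrps7 (0.17), Mrps9 (0.29) and Mrps10 (-0.17) were not called.

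The genes whose symbol and place differ split in direction. Mrps30 rose most of all members. Mrps18a fell from 107 and 118 scaled CPM in input to 65.1 and 83.5 in IP (-0.60 ± 0.15; adjusted p = 0.00450), and Mrps36 fell from 249 and 241 to 184 and 196 (-0.36 ± 0.11; adjusted p = 0.0163). By library total Mrps18a stood at 0.29 and Mrps36 at 0.53, so the direction of these 2 genes depends on the scaling. Mrps18a lost its call without the e5UTR input pool (adjusted p = 0.0549), and Mrps36 without either input pool (0.237 and 0.168), without a count filter (0.0628) and with DESeq2 (0.207).

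Promoters were set beside these values because genes for mitochondrial proteins are known to share upstream factors. RefSeq (GRCm38.p6) had an entry of 250 bases before to 50 bases after the start for 69 of the 78 members. Motifs were searched on both strands as exact letters: GCGCANGCG for NRF-1, a regulator of nuclear genes for mitochondria, CCGGAAG for ETS factors and AAGATGG for YY1. NRF-1 letters were in 16 of 69 members (23.2%), in 6.47% of all 27025 promoters and in 14.9% of the 7916 promoters of genes tested here. ETS letters were in 25 members (36.2%), against 9.12% and 19.5%. YY1 letters were in 13 members (18.8%), against 6.48% and 7.59%. Large and small subunit members held NRF-1 letters in 12 of 43 and 4 of 26, and ETS letters in 14 of 43 and 11 of 26. The stretches below belong to members at both ends of the order, with the motif in capitals.
Mrpl9, NRF-1, fell, chr3:94443298-94443327, plus strand: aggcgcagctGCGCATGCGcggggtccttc
Mrpl44, NRF-1, rose, chr1:79775973-79776002, plus strand: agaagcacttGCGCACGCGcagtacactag
Mrps26, ETS, fell, chr2:130563727-130563756, plus strand: tggtgctccgcggccaCTTCCGGgccgggc
Mrpl3, ETS, rose, chr9:105053238-105053267, plus strand: tgagaaacggaCCGGAAGtggcccggctgt
Mrps22, ETS, rose, chr9:98601680-98601709, minus strand: tgcacaaaaacctctcgagCCGGAAGttgc
A match is a description of letters and not of a bound site. NRF-1 letters stood in 1 of 9 members called higher, 6 of 20 called lower and 9 of 40 not called, and ETS letters in 3, 9 and 13 of the same groups, so each motif occurred in members of every class.

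The IP over input ratio was also taken within each treatment, and these 2 sets of ratios share no pool. Across the 78 genes their Pearson r was 0.939 and Spearman's rho 0.871, given as a description across genes, which are not independent replicates. The sign was the same for 62 of 78. The median log2 ratio was -0.14 with shGpr151 alone and -0.02 with e5UTR. Large and small subunit medians were -0.16 and -0.06 in the first and -0.02 and -0.02 in the second. The widest gap was for Mrpl45, 0.92 on the log2 scale, with a ratio of 0.607 under shGpr151 alone and 1.15 with e5UTR.

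Summed over all members, 4 genes set the balance of the subunits. The large subunit share of member counts was 55.4% in both input pools and 59.0% in both IP pools. That is 3.62 percentage points higher in IP (exact two-sided permutation test over pools p = 0.333, the smallest that 2 against 2 pools can give). Without Mrpl13, Mrpl9, Mrps26 and Mrps14, which were picked after their values were seen, the share was 64.3% and 64.0% in input and 61.8% and 61.6% in IP, a difference of -2.42 points in the opposite direction. Their Clopper-Pearson 95% intervals, which cover counting error only, reached from 63.2% to 65.0% in input and from 61.1% to 62.3% in IP. The summed member level was 11059 and 11073 scaled CPM in input and 6704 and 7287 in IP (ratio 0.632; same exact test, p = 0.333). Without the 4 genes the ratio was 0.874. By library total it was 1.17, from 8052 and 8125 CPM to 9115 and 9826, so the direction of the sum depends on the scaling.

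**Figure D3:**
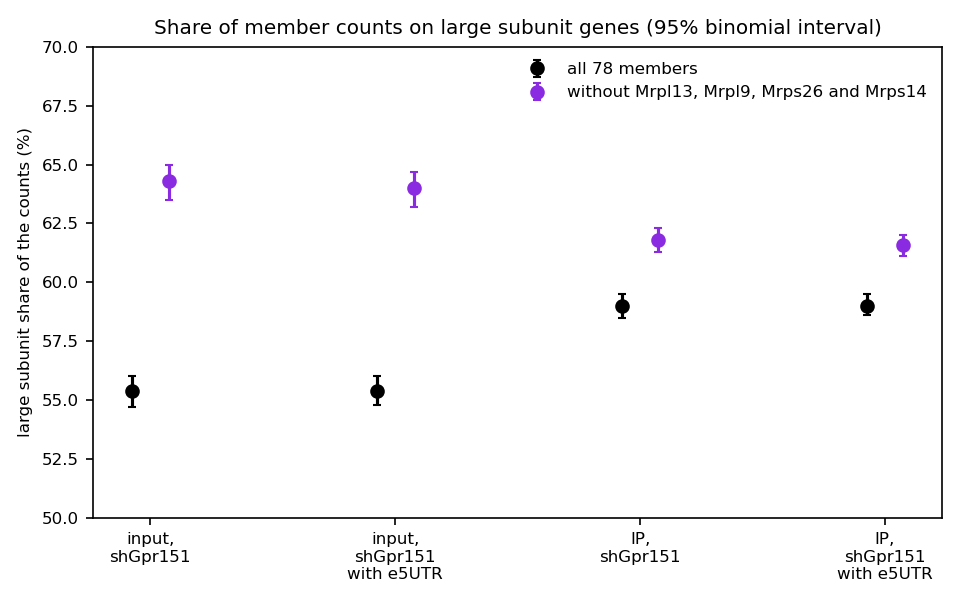
Share of member counts on Mrpl genes in each pool, in percent, with exact 95% binomial intervals for counting error, over all 78 members (black) and without 4 genes (violet); the axis starts at 50%. The black points go up from 55.4% to 59.0% between input and IP, and the violet points go down from 64.3% and 64.0% to 61.8% and 61.6%.

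Other genes of mitochondrial translation and of mitochondrial DNA expression fall into 5 lists. Their interquartile ranges were 0.91 to 1.64 on the log2 scale, beside 0.59 over the members and 2.09 over all genes. Their calls stand beside the 28.0% higher and 32.2% lower of all genes. Of 5 mitoribosomal proteins with other symbols 3 rose and 1 fell (median 0.40). They include Dap3 (27 and 28 counts in input, 173 and 217 in IP, log2 1.37) and Gadd45gip1 (1.46), which rose, and Ptcd3, which fell (-1.38). Of 10 mitochondrial translation factors tested 3 rose and 0 fell (median 0.47): the elongation factors Tufm (1.19) and Gfm1 (1.39), and Guf1 (1.56), a factor related to bacterial LepA. Mitochondrial aminoacyl-tRNA synthetases, which charge the organelle's tRNAs, had 4 rises and 3 falls of 12 (median 0.58), with Yars2 at 2.21 and Cars2 at -2.59. Yars2 rested on 4 and 3 counts in input and had 36 and 54 in IP. Of 19 mitoribosome assembly factors 5 rose and 3 fell (median 0.58). The helicase Ddx28 rose from only 5 and 1 counts in input to 55 and 62 in IP (2.81 ± 0.49). The GTPase Mtg2 fell from 3926 and 3876 counts in input to 1187 and 1006 in IP (-3.28). Of 7 genes of mitochondrial DNA expression 3 rose and 1 fell (median 0.64). Lrpprc, which stabilises mitochondrial mRNAs, rose from 3 and 1 counts to 46 and 65 (3.30), and Polg2, the accessory subunit of the mitochondrial DNA polymerase, fell from 8211 and 8285 to 2575 and 2113 (-3.26). As for Mrps26 and Mrpl13, whether the input counts of Mtg2 and Polg2 came from their own mRNAs was not tested.

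Related gene lists lay on either side of the members. Of 87 nuclear oxidative phosphorylation genes 40 rose and 10 fell, with a median of 0.24. Of 81 cytosolic ribosomal protein genes 7 rose and 58 fell, with a median of -0.40. All 13 mitochondrially encoded mRNAs, which are translated on mitochondrial and not on tagged ribosomes, fell, with a median of -4.23. The members' median of -0.11 lay between the first 2 of these lists, all of them set beside 28.0% and 32.2% of all genes called higher and lower. By library total the 4 medians were 1.13, 0.49, -3.34 and, for the members, 0.78, in the same order. Interquartile ranges on the log2 scale were 0.53, 0.39, 1.53 and, for the members, 0.59, again in that order. The narrow spread of the members was thus shared by nuclear oxidative phosphorylation and cytosolic ribosomal protein genes.

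**Figure D4:**
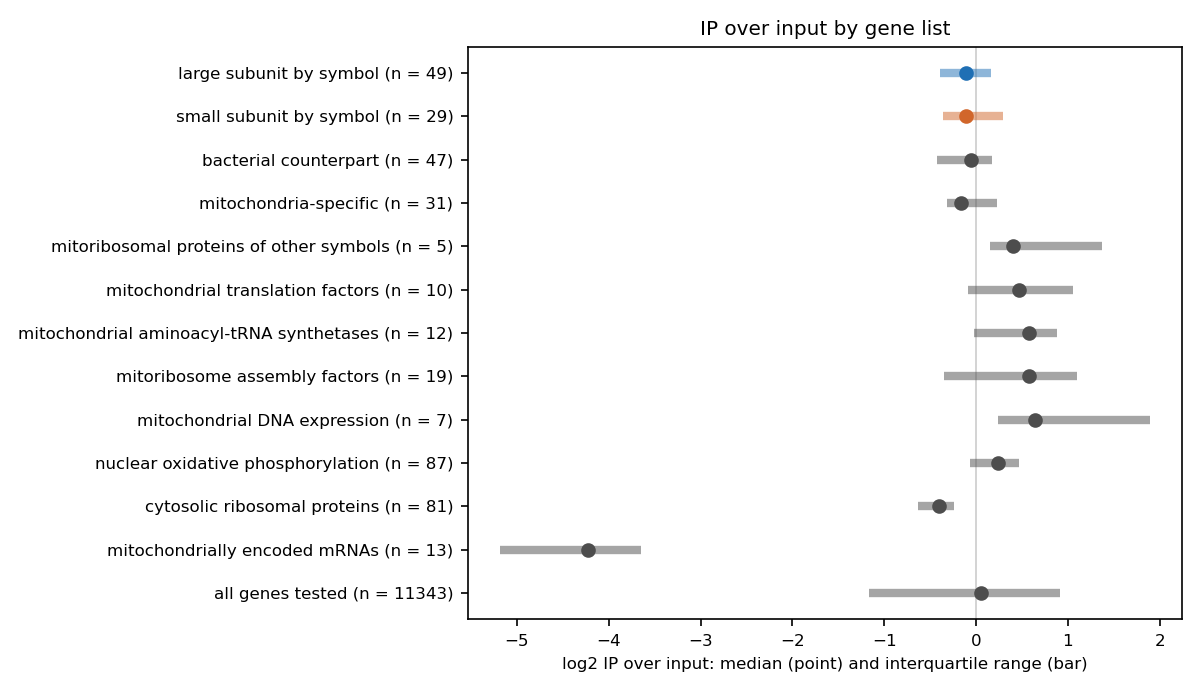
Median (point) and interquartile range (bar) of log2 IP over input for each gene list, with the number of genes tested. The 2 subunits share a median of -0.11, between cytosolic ribosomal proteins at -0.40 and nuclear oxidative phosphorylation genes at 0.24, while mitochondrially encoded mRNAs lie at -4.23.

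The second comparison set e5UTR against shGpr151 alone within each fraction. With 1 pool a group it has no test, and ratios carry exact binomial 95% intervals for counting error. Of 72 members with at least 30 counts in the 2 input pools, 1 was past 1.5-fold higher and 1 past 1.5-fold lower, beside 4.96% and 5.33% of 6834 genes. The interval lay above 1 for 0 members and below 1 for 2, beside 2.94% and 3.29% of genes. The median log2 ratio was -0.00, with -0.03 for large and 0.00 for small subunit members. The 2 members below 1 were Mrpl45, with 39 counts without and 22 with e5UTR (ratio 0.565, 0.319 to 0.976), and Mrpl41, a mitochondria-specific large subunit protein (ratio 0.842, 0.714 to 0.991). Mrps22, at 14 and 23 counts, was the member past 1.5-fold higher, and its interval of 0.811 to 3.46 includes 1.

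In ribosome-bound RNA the members' ratios lay mostly above 1, by small amounts. Of 78 members 0 were past 1.5-fold in either direction, beside 7.03% of 10337 genes higher and 7.83% lower. The interval lay above 1 for 25 members and below 1 for 3, beside 10.5% and 12% of all genes, and 788 and 920 of the 4981 genes with a mean of at least 50 counts. The median log2 ratio was 0.14 over the members, 0.14 for large and 0.12 for small subunit genes, and 0.00 over all genes. Of large subunit genes 16 lay above 1 and 1 below, and of small subunit genes 9 above and 2 below. Examples chosen after their values were seen are Mrps17, with 93.7 and 121 scaled CPM (ratio 1.29, 1.15 to 1.44), Mrpl14, with 149 and 191 (1.28, 1.17 to 1.40), and Mrps6, with 148 and 184 (1.24, 1.14 to 1.36). The 3 members below 1 were Mrps26 (207 and 147 scaled CPM, ratio 0.712, 0.652 to 0.777), Mrpl13 (207 and 168, ratio 0.811, 0.745 to 0.883) and Mrps10 (18.5 and 12.7, ratio 0.689, 0.507 to 0.933).

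Between the same 2 IP pools, nuclear-encoded lists also had medians above 0 and mitochondrially encoded mRNAs a median below 0. Nuclear oxidative phosphorylation genes had a median log2 ratio of 0.12, with 54 of 87 intervals above 1 and 2 below. Cytosolic ribosomal proteins had a median of 0.07, with 46 of 79 above and 10 below. Mitochondrially encoded mRNAs had a median of -0.30, with 0 of 12 above and 10 below. The summed sensory neuron markers were 9428 and 9943 scaled CPM and the summed satellite glia markers 295 and 274 in these pools, and their part in the members' ratios was not tested. The difference of the log2 ratios, IP minus input, had a median of 0.16 over 72 members, 0.17 for large and 0.14 for small subunit genes, and -0.00 over 6301 genes.

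**Figure D5:**
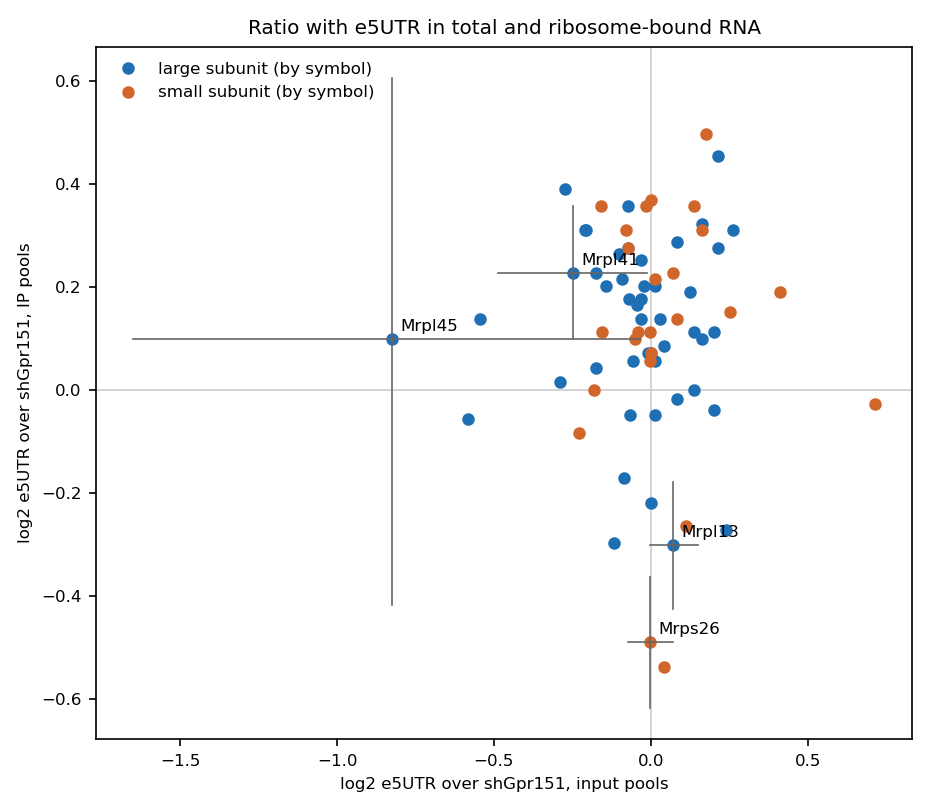
Log2 ratio of e5UTR to shGpr151 alone in the input pools (horizontal) and the IP pools (vertical) for the 72 members with at least 30 input counts; bars on 4 named genes are 95% counting intervals. The points centre on a median of -0.00 horizontally and most lie above 0 vertically, with Mrps26 and Mrpl13 among those below.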

How the data were processed

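What the authors deposited is a table of whole-number estimated counts with 12 columns, which were matched to samples by column name. For the steps that made these estimated counts before they were deposited, the submitters' processing notes name minimap2, Salmon, GRCm39 and mm39, without versions or roles, and the labels' protocols name a cDNA-PCR barcoding kit for nanopore sequencing. How reads matching several genes were treated is not stated there. Counts were used as deposited, being whole already. Symbols were found for 13191 gene IDs.

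The 3 columns of a group were summed to a pool. IP and input were compared with edgeR 4.0.16 (R 4.3.3), quasi-likelihood test on 4 pools, TMM scaling, filterByExpr (minimum count 10) and Benjamini-Hochberg adjustment over 11343 genes at 0.05. The spread between 2 pools of a fraction includes the treatment. Intervals are 95% and, as reads of PCR-amplified cDNA are not independent molecules, cover counting error only. The limit for a gene with 0 counts in a pool is 3 counts of its total, 0.660 to 1.02 CPM. Alternatives were DESeq2 1.42.0, limma 3.58.1 (voom), other scalings and filters, and leaving out columns or pools. Same-numbered columns of different groups had deviations correlated at -0.064 to 0.04. As these deviations are mostly counting noise, the check cannot show whether the numbers pair columns. No pairing was used in the fit of the pools.

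Members and lists were chosen with earlier results of these data known. Named genes were the 10 called higher and the 10 called lower members with the largest difference and no overlap between fractions, Mrps30, Mrps18a and Mrps36, for e5UTR up to 4 members each way past 1.5-fold with an interval leaving out 1, and up to 3 genes per list. RefSeq gene spans and promoters are of GRCm38, another build than the counts, and served for overlaps and motifs only.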

Additional observations from a re-analysis of the deposited data

Results flagged for a closer look

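The interaction term of an edgeR fit on the 12 columns asks whether the ratio of e5UTR to shGpr151 alone was the same in IP and input. It was called for 3 of 77 members and for 413 of 8085 genes, so members were not called more often than genes at large. The columns are close to parts of 1 pool per group, so these p-values cover counting error, compare the 4 pools and are no test of the treatment. Mrps26 had a log2 difference, IP minus input, of -0.49 (adjusted p = 0.00336), from a ratio of 0.712 in IP and 0.999 in input. Mrpl13 had a difference of -0.38 (adjusted p = 0.00315), from 0.811 in IP and 1.05 in input. Mrpl41 had a difference of 0.47 (adjusted p = 0.0346), from 1.17 in IP and 0.842 in input.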

How the results depend on the processing

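Scaling mattered most for IP against input: by library total 60 members were higher and 5 lower, both subunits had a median of 0.78, and the summed level ratio was 1.171. Among the 22 named members Mrps5 (0.16), Mrps18a (0.29) and Mrps36 (0.53) changed sign. Other members called lower by TMM did so too. Of these Mrpl33 (0.24), Mrpl21 (0.50), Mrps17 (0.48) and Mrpl20 (0.59) were called higher by library total, whereas others, such as Mrpl32 (0.20) and Mrps18b (0.41), were not called. With 12 columns as samples 18 members rose and 30 fell, beside 3125 and 3069 of 8085 genes, and a replicate block gave the same 18 and 30, beside 3094 and 3054, with a small subunit median of -0.15 in both fits. DESeq2 on the pools gave 7 and 13, beside 2068 and 3012 of 13822 genes. Without the shGpr151 or the e5UTR input pool 6 rose and 14 fell. The small subunit median of -0.11 became -0.03 without a count filter, -0.25 at a mean of 50 counts, -0.02 with DESeq2, -0.05 by structure, and -0.06 and -0.03 without the shGpr151 and the e5UTR IP pool, and the large one became 0.01 without the shGpr151 IP pool. The large subunit share difference of 3.62 points was 3.90 without the member with the most counts, 3.82 with at least 30 counts, 4.24 by structure, and -2.42 without Mrpl13, Mrpl9, Mrps26 and Mrps14, which also moved the summed ratio to 0.874. That last set, and the library total for the sum, were chosen after seeing the data.

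Leaving out 1 column at a time gave 9 to 11 higher and 19 to 22 lower members, medians of -0.14 to -0.07 (large) and -0.14 to -0.01 (small), and share differences of 3.49 to 3.81 points. For e5UTR in input it gave 1 to 3 members past 1.5-fold, 0 to 2 intervals above 1 and 0 to 2 below. In IP it gave 0 to 2 past the fold, 21 to 25 above and 2 to 5 below. In input, library total gave 2 intervals above 1, a minimum of 100 counts left 0 past the fold and 1 below, and 2-fold left 0. The edgeR fit on columns called 0 members in input (3 at an unadjusted p under 0.05). In IP it called 16 higher and 2 lower, beside 379 and 505 of 8085 genes, and with the replicate block 12 and 2, beside 345 and 469. Of the single-gene values of the named members under alternatives 514 kept their direction and side of the threshold, and 37 kept the direction without the call. The 3 named members given above changed sign by library total, with Mrps5 (adjusted p = 0.454) and Mrps18a (0.0875) not called and Mrps36 called higher (0.00107). For the IP minus input median, 2-fold has no meaning and was not run. In input 6 members had under 30 counts in the 2 pools together and were left out of the counts by that minimum. A minimum of 10 gave the same 2 past the fold, 0 above 1 and 2 below. Depth limits them to wide intervals, such as 0.527 to 3.31 for Mrpl3.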
